A study of Mus musculus with 4 samples.

Results

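Desmosomes are the junctions that join keratinocytes to one another and tie each cell's keratin filaments to the junction. Their adhesive parts are the desmosomal cadherins, which are the desmogleins (Dsg) and the desmocollins (Dsc). On the cytoplasmic side these cadherins bind the armadillo proteins plakoglobin (gene Jup) and the plakophilins (Pkp), and desmoplakin (Dsp) links this plaque to keratin. In stratified epidermis the cadherins are layered: Dsg1 and Dsc1 are the forms of the upper, differentiated layers, while Dsg3 and Dsc3 lie deeper, and Dsg2 and Dsc2 are also the forms of simple epithelia.

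The 10 genes described here were taken by symbol from 23282 lines of the deposited tables: Dsg1a, Dsg2, Dsg3, Dsc1, Dsc2, Dsc3, Jup, Pkp1, Pkp3 and Dsp. All 10 were found, and 9 had a mean log2 value over the libraries greater than 5.11, the midpoint of the table and the filter that left 11600 measured genes; Dsc2 lay below it. Skin of adult C57BL/6 mice was profiled by 3′ RNA sequencing in 4 groups of 1 library each: naive wild type (WT, Egr1+/+), naive Egr1 knockout (KO, Egr1-/-), and each genotype given a cream of house dust mite (HDM). The HDM groups had the detergent sodium dodecyl sulfate (SDS), which opens the skin barrier, and then 100 mg of cream on shaved neck and ear, 2 times a week for 3 weeks; the naive groups carry SDS alone as their treatment label. The labels name no tissue restriction of the knockout, and the number of animals behind a library is not stated in the labels.

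The libraries held 9427595 to 10107315 recovered reads. Single libraries cannot be checked against replicates, so no p-value is given. Each comparison is between 1 library and another, and every interval in parentheses is a 95% counting interval that leaves out the spread between animals. Egr1, the targeted gene, had 1966 reads in WT naive, 3158 in KO naive, 1174 in WT HDM and 3493 in KO HDM skin, so its reads were not lower in the KO libraries, which are called KO-labelled below. The labels do not say which part of the gene is disrupted, and where these 3′ reads lie against it was not tested. Other features also divide the libraries. Ddx3y of the Y chromosome had 1925 and 2430 reads in the naive and 1 in each HDM library. Xist, expressed from the inactive X chromosome, had 10 reads in WT naive, 40 in KO naive, 2195 in WT HDM and 2432 in KO HDM skin. In KO-labelled naive skin alone, 336 genes stood at 0 reads while each other library had 50 or more. The basal keratin gene Krt5 had 16872 to 86154 reads, so each library held the defining keratinocyte transcript, but secretory genes of salivary and lacrimal gland summed to 628492 reads in WT naive skin. HDM and the sex that Ddx3y and Xist mark cannot be told apart, for any gene in the HDM against naive comparisons. In whole skin, fewer cells of a type and less RNA per cell cannot be told apart either.

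Promoter sequence was at hand for 2 of the 10 genes, Dsp and Jup, and both are shown for that reason. Egr1, the gene named in the knockout labels, encodes a promoter-binding factor. Dsp had the most reads of the plaque genes, and Jup was the single gene of the 10 that was 2-fold higher in KO-labelled naive skin. The 250 bases before each RefSeq start (GRCm38.p6) are printed 5′ to 3′ on the gene's strand, for Dsp chr13:38151044-38151293 (plus) and for Jup chr11:100397791-100398040 (minus). Capitals mark the GC box GGGCGG or its reverse complement, which is read by Sp and KLF family factors.
Dsp: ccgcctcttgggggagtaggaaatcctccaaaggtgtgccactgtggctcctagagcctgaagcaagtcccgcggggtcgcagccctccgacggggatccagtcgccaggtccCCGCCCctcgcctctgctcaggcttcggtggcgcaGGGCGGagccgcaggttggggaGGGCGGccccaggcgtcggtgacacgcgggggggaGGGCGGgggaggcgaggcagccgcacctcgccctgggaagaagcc
Jup: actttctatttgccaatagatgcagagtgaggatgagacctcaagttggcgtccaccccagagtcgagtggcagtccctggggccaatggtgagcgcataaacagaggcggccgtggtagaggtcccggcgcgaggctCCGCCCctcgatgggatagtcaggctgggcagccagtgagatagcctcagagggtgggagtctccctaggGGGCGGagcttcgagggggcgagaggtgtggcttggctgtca

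The GC box occurred 4 times before Dsp and 2 times before Jup, and in 32.7% of all 32851 RefSeq promoter windows of that length. Both windows are rich in G and C (72.4% for Dsp and 62.0% for Jup, against a median of 52.4%). Both strands were also searched for the EGR1 motif GCGTGGGCG, its variant GCGGGGGCG, the AP-1 motif TGANTCA and the grainyhead motif AACCGGTT. None of these letters was found in either window; they occurred in 0.536%, 2.57%, 6.75% and 0.116% of all windows.

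The 6 cadherin genes lie side by side on chromosome 18 (mm10/GRCm38, 19960930 to 20604521), a stretch of 644 kb with 9 desmosomal cadherin genes, of which Dsg1b, Dsg1c and Dsg4 are not among the 10. The 3 desmocollins are on the minus strand and the desmogleins on the plus strand. The plaque genes are scattered: Pkp1 on chromosome 1 (135871395 to 135919207, minus), Pkp3 on chromosome 7 (141078218 to 141090510, plus), Jup on chromosome 11 (100368958 to 100397763, minus) and Dsp on chromosome 13 (38151294 to 38198577, plus). None of the 451 windows of 50 bases in the last 500 bases of each gene's longest coding transcript occurred in a transcript of another gene, Dsg1a included. The 3′ end of Dsg2 overlaps the antisense gene Gm16090. Whether counting used strand is not stated, so reads of that pair cannot be told apart.

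With HDM, most of the desmosomal genes stood higher in WT skin: 5 of the 10 were higher by 2-fold or more (Dsc1, Dsc2, Dsg3, Pkp3 and Dsp) and 0 lower, with Dsc2, Dsg3 and Dsc1 furthest up. Of all measured genes, 14.5% were higher by that rule and 12.7% lower. In KO-labelled skin 6 were higher (Dsc2, Dsc3, Dsg3, Pkp1, Pkp3 and Dsp) and 1, Dsg1a, lower, against 21.7% and 18.2% of measured genes. Dsc2 is in the counts of both genotypes but below the filter. Without the filter, 17.2% of genes were higher and 13.1% lower in WT, and 25.6% and 12.4% in KO-labelled skin. The members' median log2 difference was 0.97 in WT and 1.04 in KO-labelled skin, beside 0.03 and 0.06 over all measured genes. Relative to the median of 12 general epithelial genes, which was itself 0.51 and 1.05, the counts were 3 higher and 2 lower in WT and 2 and 2 in KO-labelled skin. With WT naive in place of KO-labelled naive as the reference for KO-labelled HDM skin, 3 were higher and 0 lower.

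**Figure D1:**
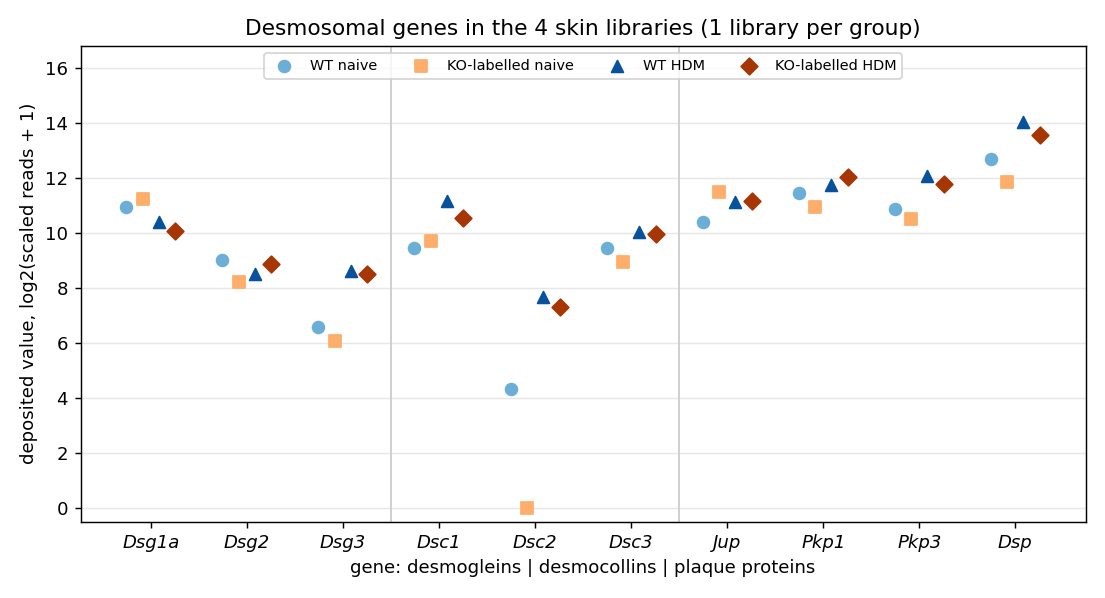
Deposited log2(scaled reads + 1) values of the 10 desmosomal genes (x axis) in each of the 4 libraries; each point is 1 library, so there is no error bar. Both HDM points lie above both naive points for Dsg3, Dsc1, Dsc2, Dsc3, Pkp1, Pkp3 and Dsp, and below them for Dsg1a. The share of all measured genes separated in this way is not given here, so the ordering is a description only. Dsc2 is at 0 in KO-labelled naive skin.

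Among the desmogleins, Dsg3 and Dsg1a lay apart in opposite directions. Dsg3 (chromosome 18, 20510274 to 20547459), the desmoglein of the deeper layers and the main autoantigen of pemphigus vulgaris, had 90 reads in naive WT skin and 70 in naive KO-labelled skin, then 366 in WT and 388 in KO-labelled skin given HDM. Both HDM libraries were thus above both naive ones. The gene was 4.15-fold higher with HDM in WT (3.29 to 5.29) and 5.56-fold higher in the KO-labelled pair (4.30 to 7.28). Of Dsg1a, Dsg2 and Dsg3, it differed the most in either genotype.

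Dsg1a (chromosome 18, 20310811 to 20343350), one of the mouse genes for desmoglein 1, the adhesive cadherin of the upper layers and the target of pemphigus foliaceus antibodies, ran the other way. It had 1847 reads in naive WT skin and 2549 in naive KO-labelled skin, then 1241 in WT and 1133 in KO-labelled skin given HDM. Both HDM libraries were the lower ones. The gene was 1.46-fold lower with HDM in WT skin (1.36 to 1.57), short of the 2-fold rule, and 2.24-fold lower in KO-labelled skin (2.09 to 2.41). Against the WT naive library, KO-labelled HDM skin lay at a log2 difference of -0.87, which is not past 2-fold.

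Dsg2 (chromosome 18, 20558074 to 20604521), the desmoglein that simple epithelia also use, had 486 reads in naive WT skin and 314 in naive KO-labelled skin, then 333 in WT and 495 in KO-labelled skin given HDM. Naive and HDM libraries overlapped, and no difference passed 2-fold. With HDM it was 1.43-fold lower in WT (1.24 to 1.65) and 1.58-fold higher in the KO-labelled pair (1.37 to 1.83). Less the general epithelial median, it was lower in both, at log2 differences of -1.02 and -0.39. Of 8 markers of simple epithelium, 3 of which passed the filter, 6 were lower with HDM and 0 higher in WT. In KO-labelled skin 2 were lower and 3 higher, the latter from 0 to 9 naive reads. Over all genes without the filter, 17.2% were higher and 13.1% lower in WT, and 25.6% and 12.4% in KO-labelled skin. The markers' summed reads were 1252, 1818, 715 and 1287 in WT naive, KO-labelled naive, WT HDM and KO-labelled HDM skin. Epcam alone had 638, 1321, 543 and 980 of these. Secretory genes of salivary and lacrimal gland had 628492, 75626, 660 and 76 reads in the same order. Their part in the Dsg2 values was not tested.

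Because a ratio within a library does not depend on the scaling between libraries, the deep and upper forms were also set against each other inside each library. Dsg1a had 20.5 reads for each Dsg3 read in naive WT skin and 36.4 in naive KO-labelled skin, but 3.39 in WT and 2.92 in KO-labelled skin given HDM. The ratio was 6.05-fold lower with HDM in WT (4.73 to 7.79) and 12.5-fold lower in KO-labelled skin (9.54 to 16.5). As a share of the reads of Dsg1a, Dsg2 and Dsg3 together, Dsg3 had 3.71% in naive WT skin and 2.39% in naive KO-labelled skin, then 18.9% in WT and 19.2% in KO-labelled skin given HDM. Between genotypes under HDM the ratio of Dsg1a to Dsg3 differed by 1.16-fold, and the interval reached from 1.37-fold lower in KO-labelled skin to 1.02-fold higher.

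**Figure D2:**
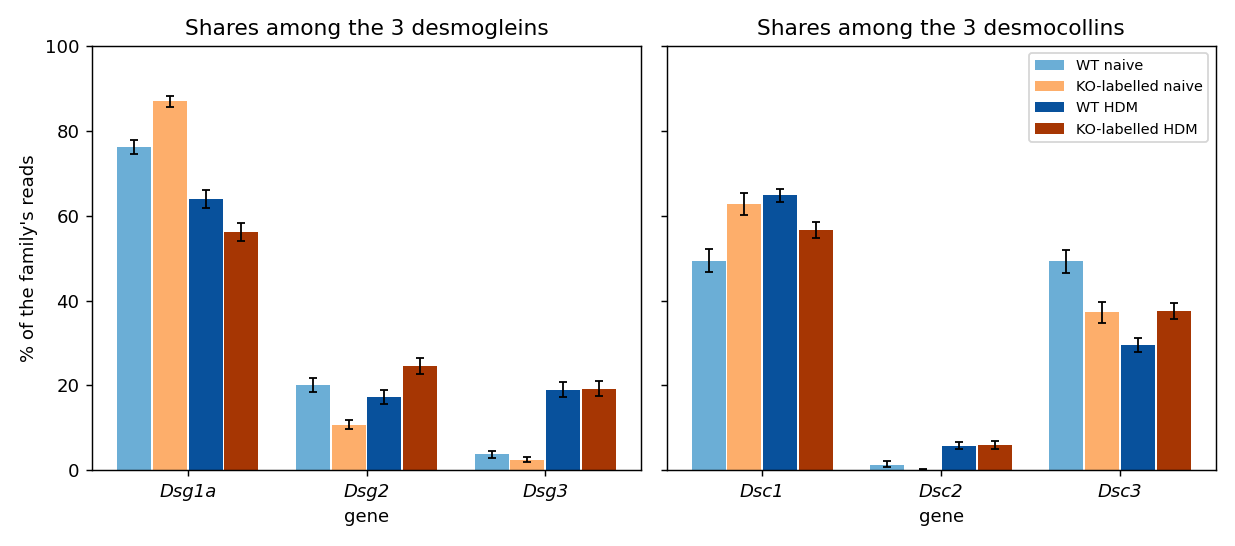
Share of each gene (y axis, %) among the reads of 3 desmogleins (left) and 3 desmocollins (right), 1 bar per library, with exact 95% binomial counting intervals. Dsg3 takes 18.9% and 19.2% in the HDM libraries against 3.71% and 2.39% in the naive ones, while the Dsc1 share in the HDM libraries does not lie on 1 side of the naive libraries.

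All desmocollins stood higher with HDM. Dsc1 (chromosome 18, 20084184 to 20114871), the desmocollin of the upper layers, had 660 reads in naive WT skin and 887 in naive KO-labelled skin, then 2134 in WT and 1581 in KO-labelled skin given HDM. The HDM libraries did not overlap the naive ones. It was 3.30-fold higher in WT (3.02 to 3.61) and 1.79-fold higher in the KO-labelled pair (1.65 to 1.94). Dsc1 and Dsg1a, both forms of the upper layers, thus differed from naive skin in opposite directions in each genotype on the deposited scale. Less the general epithelial median this held in WT (1.21 and -1.05) but not in KO-labelled skin, where both were lower (-0.21 and -2.21).

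Dsc3 (chromosome 18, 19960930 to 20002351), the desmocollin of the deeper layers, had 659 reads in naive WT skin and 525 in naive KO-labelled skin, then 973 in WT and 1048 in KO-labelled skin given HDM. The differences were small, 1.51-fold in WT (1.36 to 1.67) and 2.00-fold in KO-labelled skin (1.80 to 2.23). The latter sits on the 2-fold line, with a log2 difference of 1.001, and was 0.50 with WT naive as the reference. Less the median of the general epithelial genes it was -0.0455.

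Dsc2 (chromosome 18, 20030633 to 20059554), the most widespread desmocollin of epithelia, was the scarcest of the 10 and differed the most. It had 18 reads in naive WT skin and 0 in naive KO-labelled skin, then 188 in WT and 166 in KO-labelled skin given HDM. In WT skin it was 10.7-fold higher with HDM (6.56 to 18.4). In KO-labelled skin it was at least 55.5-fold higher, with the 0 taken as up to 3 reads in that library. The log2 difference of KO-labelled HDM skin from WT naive was 2.97. The 0 falls in the library with many other genes at 0, and whether reads were lost there was not tested.

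The desmocollin balance followed no single pattern over the libraries. Dsc1 had 1.0 reads for each Dsc3 read in naive WT skin and 1.69 in naive KO-labelled skin, then 2.19 in WT and 1.51 in KO-labelled skin given HDM. With HDM the ratio was 2.19-fold higher in WT (1.91 to 2.5). In KO-labelled skin it was 1.12-fold lower, with an interval from 1.28-fold lower to 1.02-fold higher. The Dsc2 share of all desmocollin reads was 1.35% in WT naive and 0 of 1412 reads in KO-labelled naive skin (up to 0.261%), against 5.71% and 5.94% with HDM.

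Of the plaque genes, Dsp and Pkp3 were more than 2-fold higher with HDM in both genotypes. Dsp, the plakin that anchors keratin filaments and is an obligate part of desmosomes, had 6226 reads in naive WT skin and 3981 in naive KO-labelled skin, then 15625 in WT and 12870 in KO-labelled skin given HDM. It was 2.56-fold higher with HDM in WT (2.49 to 2.64) and 3.24-fold higher in the KO-labelled pair (3.13 to 3.36). Against WT naive, KO-labelled HDM skin lay at a log2 difference of 0.88. Less the general epithelial median, the differences were 0.85 and 0.65.

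Pkp3, the plakophilin found through all living layers of the epidermis, had 1760 reads in naive WT skin and 1544 in naive KO-labelled skin, then 3985 in WT and 3695 in KO-labelled skin given HDM. It was 2.31-fold higher with HDM in WT (2.18 to 2.45) and 2.40-fold in KO-labelled skin (2.26 to 2.55), the most alike responses of the 10 genes. Its log2 differences were 0.70 and 0.22 less the general epithelial median, and 0.90 for KO-labelled HDM against WT naive.

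Pkp1, the plakophilin whose loss in people causes ectodermal dysplasia with skin fragility, had 2667 reads in naive WT skin and 2118 in naive KO-labelled skin, then 3201 in WT and 4487 in KO-labelled skin given HDM. Both HDM libraries were above both naive ones, by less in WT, 1.23-fold (1.16 to 1.29), than in KO-labelled skin, 2.13-fold (2.02 to 2.24). Less the general epithelial median the log2 differences were -0.22 and 0.04. The log2 difference of KO-labelled HDM skin from WT naive was 0.58. Within libraries, Pkp1 had 1.52 reads for each Pkp3 read in naive WT skin and 1.37 in naive KO-labelled skin, then 0.803 in WT and 1.21 in KO-labelled skin given HDM. The ratio was 1.89-fold lower with HDM in WT (1.75 to 2.04) and 1.13-fold lower in KO-labelled skin (1.04 to 1.22).

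Jup, whose product plakoglobin sits in desmosomes and adherens junctions alike, showed no common direction with HDM. It had 1266 reads in naive WT skin and 3032 in naive KO-labelled skin, then 2055 in WT and 2441 in KO-labelled skin given HDM, so that the 2 naive libraries were the lowest and the highest. It was 1.66-fold higher with HDM in WT (1.54 to 1.78) and 1.24-fold lower in KO-labelled skin (1.17 to 1.31). Against WT naive, KO-labelled HDM skin lay at a log2 difference of 0.78.

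**Figure D3:**
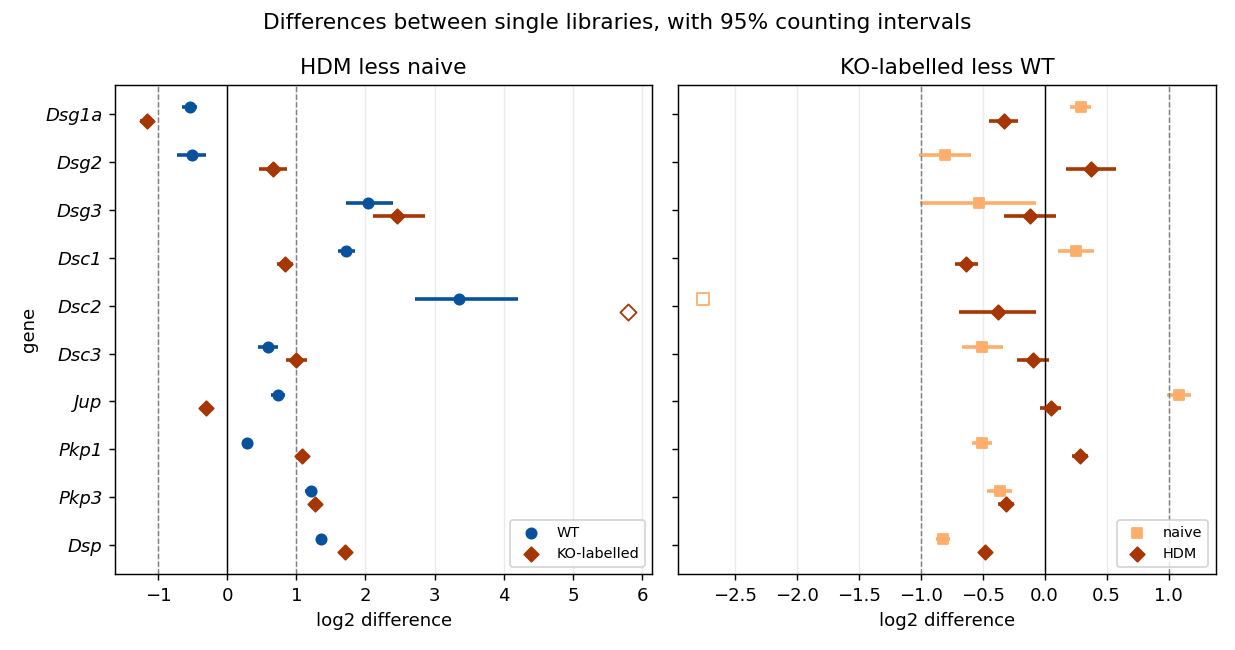
Log2 differences (x axis) of the 10 genes between single libraries: HDM less naive in WT and KO-labelled skin (left) and KO-labelled less WT in naive and HDM skin (right). Lines are 95% counting intervals, dashed lines mark 2-fold, and open symbols are values with a 0 taken as 3 reads. Dsg3, Dsc2, Pkp3 and Dsp are past 2-fold with HDM in both genotypes, and no gene is past 2-fold between genotypes under HDM.

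Between genotypes in naive skin, 1 of 10 genes was higher by 2-fold or more in the KO-labelled library (Jup) and 1 lower (Dsc2, below the filter). Of measured genes 13.6% were higher and 17.1% lower, and without the filter 9.66% and 21.9%. Both counts are near those shares. Jup was 2.12-fold higher (1.99 to 2.27). Dsc2, with 18 reads against 0, was 6.77-fold lower with the 0 taken as 3 reads, and its counting interval began at 4.96-fold lower. The other 6 lower genes did not reach 2-fold: Dsp by 1.76-fold (1.70 to 1.84), Dsg3 by 1.45-fold (1.05 to 2.01), Pkp1 by 1.42-fold (1.34 to 1.5), Dsc3 by 1.42-fold (1.26 to 1.59), Pkp3 by 1.29-fold (1.2 to 1.38) and Dsg2 by 1.75-fold (1.51 to 2.02). Both upper-layer cadherins were slightly higher, Dsg1a by 1.22-fold (1.15 to 1.30) and Dsc1 by 1.19-fold (1.08 to 1.32). The members' median was -0.50, beside -0.03 over all measured genes and -0.38 over the general epithelial genes.

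Under HDM, 0 of the 10 genes were past 2-fold between genotypes in either direction. Among measured genes, 3.06% passed that line upward and 4.66% downward. With shares this small, a count of 0 in 10 does not set the members apart from other genes. The members' differences ran from a log2 of -0.63 to 0.37. Dsc1 was 1.55-fold lower in KO-labelled skin (1.45 to 1.65), Dsp 1.39-fold (1.36 to 1.43), Dsc2 1.30-fold (1.05 to 1.61), Dsg1a 1.26-fold (1.16 to 1.36) and Pkp3 1.24-fold lower (1.18 to 1.30). Dsg2 was 1.29-fold (1.12 to 1.49) and Pkp1 1.22-fold higher (1.17 to 1.28). For Dsc3, Dsg3 and Jup the counting interval of the ratio held 1: 0.859 to 1.02, 0.798 to 1.07 and 0.975 to 1.1. The median was -0.21, beside -0.01 over all measured genes.

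The HDM responses of both genotypes, given here side by side as log2 differences, were nearest for Pkp3 (1.21 in WT and 1.26 in KO-labelled skin), Dsp (1.36 and 1.70), Dsc3 (0.59 and 1.0) and Dsg3 (2.04 and 2.46). The KO-labelled response less the WT response was -1.04 for Jup, -0.88 for Dsc1, -0.62 for Dsg1a, 0.79 for Pkp1 and 1.17 for Dsg2. For Dsc2 it was 3.95, the largest of the 10, or 2.45 with the 0 of KO-labelled naive skin taken as 3 reads. With 1 library a group this difference has no error term and was not tested.

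Other desmosomal and cornified-junction genes numbered 9, of which 5 passed the filter. With HDM, 2 of the 9 were higher and 0 lower by 2-fold in WT skin, and 5 higher and 1 lower in KO-labelled skin. Without the filter, 17.2% of all genes were higher and 13.1% lower in WT, and 25.6% and 12.4% in KO-labelled skin. Dsg1b, Dsg1c and Pkp2, all below the filter, were among those higher in KO-labelled skin, from 0, 0 and 2 naive reads. Corneodesmosin (Cdsn), the glue of the junctions that hold the cornified layer, had 1895 reads in naive WT skin and 1162 in naive KO-labelled skin, then 4069 in WT and 2943 in KO-labelled skin given HDM. It was 2.19-fold (2.08 to 2.32) and 2.54-fold higher (2.37 to 2.72). Pkp4 was 1.51-fold (1.35 to 1.70) and 2.70-fold higher (2.35 to 3.11). The desmosomal tetraspan gene Perp differed little, at 0.988-fold (0.965 to 1.01) and 1.17-fold (1.15 to 1.2). Periplakin (Ppl), a plakin of the cornified envelope, was 1.46-fold lower in WT and 2.03-fold lower in KO-labelled skin, and envoplakin (Evpl), its partner, 1.79-fold (1.64 to 1.94) and 1.35-fold higher (1.24 to 1.46).

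The remaining desmoglein genes were scarce. Dsg1b had 17 reads in naive WT skin and 0 in naive KO-labelled skin, then 34 in WT and 49 in KO-labelled skin given HDM, and Dsg1c 7, 0, 18 and 17. At the annotated end of Dsg1b, 11.3% of the windows of 50 bases occurred in other genes' transcripts, Dsg1a among them, so its few reads are uncertain. Dsg4, the desmoglein of the hair shaft cortex, had at most 2 reads in any library. Pkp2, the plakophilin of heart and simple epithelia, had 29, 2, 24 and 51 reads.

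Adherens junction genes, the other cadherin system of keratinocytes, numbered 12. With HDM 7 were higher and 0 lower in WT, 8 higher and 0 lower in the KO-labelled libraries, with medians of 1.01 and 1.60. The shares of all measured genes were 14.5% higher and 12.7% lower in WT, and 21.7% and 18.2% in KO-labelled skin. E-cadherin (Cdh1) was 1.40-fold (1.35 to 1.45) and 2.40-fold higher (2.31 to 2.49). The p120 catenin gene Ctnnd1, which stabilises cadherins at the membrane, was 8.95-fold (8.0 to 10.1) and 3.05-fold higher (2.79 to 3.34). The nectin gene Pvrl4 was 6.61-fold (5.90 to 7.41) and 4.59-fold higher (4.09 to 5.16). In KO-labelled skin Vcl, which encodes the actin linker vinculin, was 5.53-fold higher (4.58 to 6.71). The nectin gene Pvrl2 was 36.9-fold higher there (19.8 to 77.6), with 10 reads against 368. In WT it was 2.04-fold higher (1.72 to 2.43), with 204 against 408. Those 10 reads fall in KO-labelled naive skin, the library with many genes at 0, and whether reads were lost there was not tested. The lowest members were Ctnna1 (alpha-catenin) and Mllt4 (afadin) in WT, at log2 differences of -0.11 and 0.02, and Mllt4 and Ajuba in KO-labelled skin, at 0.57 and 0.75. The desmosomal medians of 0.97 and 1.04 thus lay below those of the adherens list; no test of that gap was made.

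**Figure D4:**
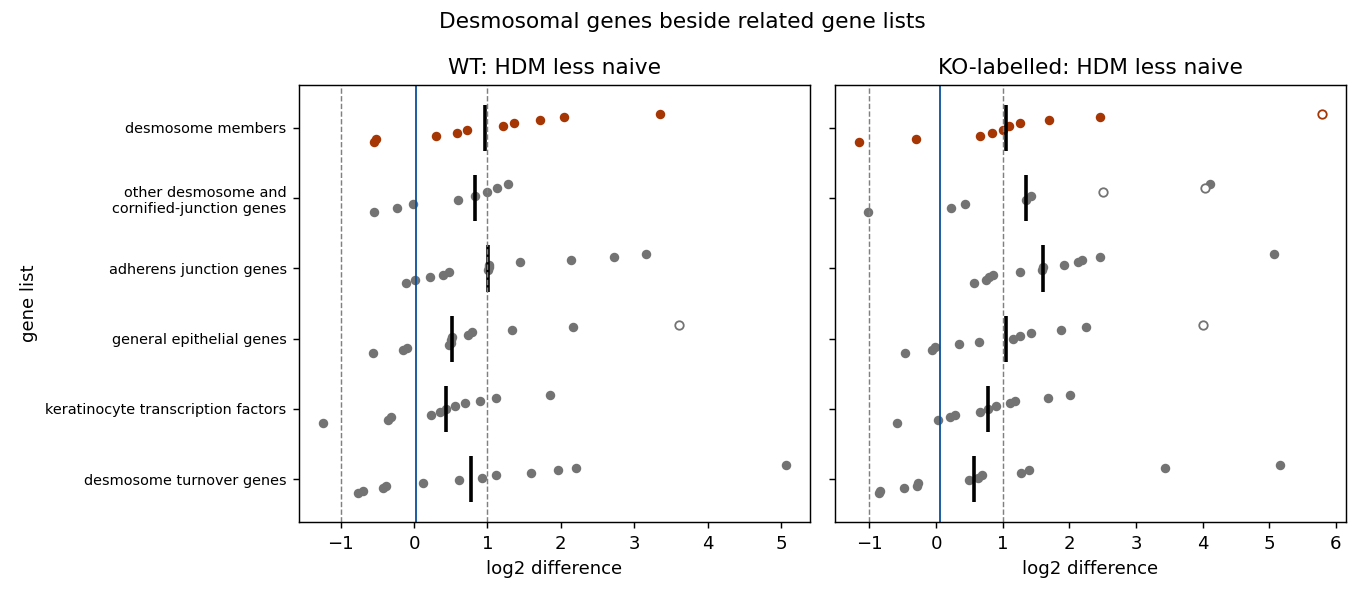
Log2 differences with HDM (x axis) of single genes in 6 lists, in WT (left) and KO-labelled skin (right). Black bars are list medians, the blue line the median of all measured genes, and dashed lines 2-fold. Open symbols are values with a 0 taken as 3 reads (genes with at most 3 reads in both libraries are not drawn). In all 6 lists the median lies to the right of the median of all measured genes.

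Keratinocyte transcription factors numbered 11: with HDM 2 were higher and 1 lower in WT, 4 higher and 0 lower in the KO-labelled libraries. The shares of all measured genes were 14.5% higher and 12.7% lower in WT, and 21.7% and 18.2% in KO-labelled skin. The WT counts are near those shares. Ovol1, a repressor at the exit from proliferation, was 3.60-fold (3.29 to 3.95) and 4.03-fold higher (3.66 to 4.44). Next in order were Cebpb in WT, 2.17-fold (2.01 to 2.35), and Prdm1 in KO-labelled skin, 3.23-fold (2.69 to 3.9). Gata3 was 2.37-fold lower in WT and 1.16-fold higher in the KO-labelled pair (1.11 to 1.22), and Cebpa 1.28-fold lower in WT. In KO-labelled skin the lowest were Klf4, 1.51-fold lower, and Grhl3, with 89 and 90 reads. Grhl1, a grainyhead factor known to act on desmoglein 1 expression, was 1.35-fold (1.26 to 1.46) and 2.28-fold higher (2.09 to 2.5). Its part in the Dsg1a values was not tested.

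Among 12 genes of desmosome turnover, 5 were higher and 0 lower in WT skin, and 4 higher and 0 lower in KO-labelled skin. Over all genes without the filter, 17.2% were higher and 13.1% lower in WT, and 25.6% and 12.4% in KO-labelled skin. Klk7, a kallikrein protease of corneodesmosomes, was 3.01-fold (2.94 to 3.07) and 2.63-fold higher (2.58 to 2.69). The related gene Klk14, which did not pass the filter, had 2 reads against 97 in WT, a 49.5-fold difference (13.3 to 415), and 1 against 72 in KO-labelled skin, a 72.2-fold difference (12.6 to 2892). The matriptase gene St14 was 3.92-fold (3.12 to 4.97) and 11.2-fold higher (7.80 to 16.5), and the growth factor receptor gene Egfr 4.64-fold (3.71 to 5.84) and 2.43-fold higher (1.94 to 3.05). Prkca, the kinase known to loosen desmosomes, was 1.63-fold and 1.80-fold lower. The other lowest genes were the metalloprotease gene Adam15 in WT, 1.69-fold lower, and the corneodesmosome protease gene Klk5 in KO-labelled skin, 1.80-fold lower.

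The median of 12 general epithelial genes served above as another reference, and whether it tracks epithelial content was not tested. With HDM, 3 of these genes were higher and 0 lower in WT, and 6 higher and 0 lower in the KO-labelled libraries. Over all genes without the filter, 17.2% were higher and 13.1% lower in WT, and 25.6% and 12.4% in KO-labelled skin. Rab25, a GTPase of epithelial recycling, was 4.50-fold (4.19 to 4.85) and 4.75-fold higher (4.39 to 5.14). Spint1, a protease inhibitor gene, was 2.52-fold (2.2 to 2.9) and 2.22-fold higher (1.96 to 2.53), and the sorting adaptor gene Ap1m2 1.74-fold (1.5 to 2.02) and 3.70-fold higher (3.11 to 4.42). The lowest measured gene in WT was Esrp1, at a log2 difference of -0.15, and the lowest in KO-labelled skin were Prss8 and Grhl2, at -0.47 and -0.06. The splicing factor gene Esrp2, which did not pass the filter, had 0 reads in both naive libraries and 36 and 48 with HDM. With each 0 taken as 3 reads it was 12.2-fold and 16.1-fold higher, and the counting intervals began at 9.46-fold and 12.6-fold.

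Keratins, whose filaments are linked to the desmosomal plaque, and markers of other tissues also differed between the libraries. Basal keratin Krt5 was 3.12-fold (3.08 to 3.17) and 4.88-fold higher with HDM (4.8 to 4.96), and its partner Krt14 3.10-fold (3.03 to 3.16) and 6.90-fold higher (6.72 to 7.09). Krt15, a basal keratin also known from the follicle bulge, went the other way, 7.86-fold lower in WT (7.40 to 8.35) and 3.47-fold lower in KO-labelled skin (3.33 to 3.62). Of the stress keratins, Krt6a of activated epidermis was 116-fold (110 to 122) and 648-fold higher (581 to 725). Upper-layer Krt1 was 24.8-fold higher in WT (23.2 to 26.5) and 13.8-fold higher in the KO-labelled pair (12.6 to 15.2), while its partner Krt10 was 2.01-fold higher in WT (1.97 to 2.06) and 2.24-fold lower in KO-labelled skin, and Krt2, known from ear and tail epidermis, had 61036, 93547, 4493 and 1 reads in WT naive, KO-labelled naive, WT HDM and KO-labelled HDM skin. In that order, hair follicle markers summed to 296, 396, 21750 and 58848 reads, with 9 of 9 higher with HDM in either genotype, and cartilage markers to 27354, 25280, 14645 and 85, with 8 of 10 lower in WT and 9 of 10 in KO-labelled skin. Skeletal muscle markers summed to 19639, 34158, 20204 and 28589 reads, with 1 of 5 lower in either genotype. Beside these marker counts, 17.2% of all genes without the filter were higher and 13.1% lower in WT, and 25.6% and 12.4% in KO-labelled skin. The part of growing follicles, of the skin site sampled and of activated epidermis in the desmosomal values was not tested.

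The 5 measured genes outside the lists whose centred profile over the 4 libraries lay nearest the members' median profile were Camsap1, Osgep, Hprt, Txn2 and Rrs1, at Euclidean distances of 0.0245 to 0.0766 on the log2 scale. With 4 libraries such likeness is a description only. Among the members, Dsc3 and Pkp1 had the most alike profiles (distance 0.289), and Dsc2 and Dsg1a the least (6.98, with the 0 of Dsc2 at its deposited value); without Dsc2, Dsg1a and Dsg3 lay furthest apart (3.16).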

How the data were processed

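QuantSeq 3′ libraries were made from 500 ng of total RNA of mouse skin, per the labels' protocols. The submitters' processing notes list Bowtie2, bedtools and mm10 but give no version and no role. Nothing used here states the annotation, filters or normalization. The authors deposited 1 table per library of log2 values with 3 decimals. Once the log2 was undone and 1 subtracted, most low values lay on whole multiples of a step. The step was 1.056 (WT naive), 0.936 (KO naive), 1.078 (WT HDM) and 0.939 (KO HDM). The deposited values were therefore read as log2(x + 1) of scaled reads. Some WT values just above 0 lay on no step, such as 0.028 for Esrp2 in WT naive and 0.031 for Krt77 in WT HDM skin. They were taken as 0 reads and left out of the check that follows. Division by the step gave reads that were whole within 0.1 for 98.9%, 96.2%, 98.2% and 99.1% of genes up to 200 reads; larger read numbers are approximate.

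Symbols on more than 1 line (35 symbols, 79 lines) were left out. A difference is that of deposited log2 values, called at 2-fold; folds are ratios of scaled reads with exact conditional (Clopper-Pearson) 95% intervals. Ratios between genes have exact conditional intervals of the odds ratio. A 0 was taken to allow 3 reads per library. Reads without molecular identifiers are not molecules, so intervals cover counting error only. No model was fitted and no test made, since each group holds 1 library. The functions were tested on simulated data with 200 changed genes. All 10 members are named. Of the comparison lists, the 2 measured genes highest and the 2 lowest in each HDM comparison could be named, and any keratin or desmosomal gene; Cdh1, Grhl1 and, below the filter, Klk14 and Esrp2 were added after their values were seen. A gene that this rule selects is not reported here. The alternatives were scaling to library totals, median centring, centring on general epithelial genes, a pseudocount of 10, no filter, a 75th percentile filter, 1.5-fold and another naive reference. The members and lists were chosen with earlier results of these data known. Gene positions are from GENCODE M21. Scripts ran in Python 3.11.15 with scipy 1.17.1, pandas 2.3.3, numpy 2.4.6 and matplotlib 3.10.9.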

Additional observations from a re-analysis of the deposited data

Results flagged for a closer look

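For 5 genes the same contrast went opposite ways in the 2 genotypes or the 2 treatments, with both counting intervals clear of no change. With 1 library a group, none of these differences between groups was tested. With HDM, Jup had a log2 difference of 0.73 in WT and -0.31 in KO-labelled skin, and Dsg2 -0.51 in WT and 0.66 in KO-labelled skin. Less the general epithelial median Dsg2 was lower in both (-1.02 and -0.39), while Jup still had opposite signs (0.22 and -1.35).

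KO-labelled less WT, Dsg2 was at -0.80 in naive and 0.37 in HDM skin, and Pkp1 at -0.51 and 0.29. Both upper-layer cadherins had the reverse order: Dsc1 was at 0.25 in naive and -0.63 in HDM skin, and Dsg1a at 0.29 and -0.33.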

How the results depend on the processing

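No paired analysis was possible because each group held 1 library. Scaling to library totals, setting the median of all measured genes to 0, a pseudocount of 10 and dropping the filter moved no count of members past 2-fold by over 1.5 times. Less the median of the general epithelial genes, the counts were 3 higher and 2 lower with HDM in WT and 2 higher and 2 lower in KO-labelled skin, and 5 of 40 member differences over all comparisons changed sign: Dsc3 (-0.0455), Dsc1 (-0.21) and Dsg2 (-0.39) with HDM in KO-labelled skin, Pkp1 with HDM in WT (-0.22) and Pkp3 between naive libraries (0.02). Dsg2 was then lower with HDM in both genotypes, and 9 of 40 changed side of the 2-fold line. Above the 75th percentile of mean values 8 members were left, without Dsc2 and Dsg3: 3 were higher with HDM in WT (11.9% of 5801 genes) and 0 lower in KO-labelled naive skin (9.91%). At 1.5-fold, 3 members were lower in KO-labelled naive than in WT naive (27.4% of 11600 genes) and 1 in KO-labelled HDM than in WT HDM skin (12.2%). With WT naive in place of KO-labelled naive, chosen after seeing the data, 3 members were higher with HDM in KO-labelled skin and 0 lower, and 2 of 10 changed sign (Dsg2, -0.14, and Jup, 0.78). Depth limits Dsc2 and Dsg3 most, with 0 to 90 reads in naive skin.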
